A study of Aedes albopictus with 6 samples.

Results

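The gene for cytoplasmic C-1-tetrahydrofolate synthase (LOC109411581) gave 4 circular RNAs (circRNAs) among the 8690 listed for Aedes albopictus, the Asian tiger mosquito. The 4 were taken as every entry with this host gene, after repeated lines for the same position and strand were made into 1. RNA came from the whole body of virgin Foshan strain mosquitoes aged 2 days, with no treatment named: 3 pools of 30 females and 3 pools of 30 males, each pool a library. Ribosomal RNA was removed and linear RNA was digested with RNase R, an exonuclease that spares closed circles. The gene was chosen by its junction reads: how its reads were divided between its circRNAs in either sex was known when it was picked, so its values by sex are given as a description. Calls from fits over all features are stated beside the share of all features called, and nothing is drawn from them.

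C-1-tetrahydrofolate synthase is an enzyme with several activities that interconverts forms of tetrahydrofolate, the carrier of single carbon units in the cell. The formyl form it makes feeds purine synthesis, and the methylene form is used to make thymidylate for DNA. In humans the gene is called MTHFD1. A circRNA forms when a splice donor is joined back to an acceptor that lies upstream of it, and it is counted by reads that cross this back-splice junction, so the counts say nothing of the linear messenger RNA of the gene.

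The gene lies on the plus strand of contig NW_021838876.1, from 1872011 to 1923605 in the deposited table, a span of 51594 bases. The genome build is not given in the sources used here. All 4 circRNAs come from the middle of the gene, between 49.2% and 75.1% of the way along it. On the plus strand the higher position of a circRNA is the donor side of the back-splice and the lower position the acceptor side.

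The major circRNA runs from 1903280 to 1904068 and has both ends at exons (class exon-exon). Its authors' spliced length is 469 bases, which leaves out 319 bases of its span of 788. The long circRNA, also exon-exon, uses the same start and ends at 1910740. It spans 7460 bases and has a spliced length of 700 bases, so the 6672 bases it adds to the major circRNA hold 231 bases of exon by the authors' length. The short circRNA, exon-exon as well, runs from 1903328 to 1904068, starts 48 bases inside the major circRNA and has a spliced length of 422 bases. That length is 47 bases less than the length of the major circRNA, a difference of 1 base from the distance of the starts. Exon-exon circRNAs of all host genes had a median spliced length of 650 bases, with quartiles at 418 and 1016, so the major and short circRNAs lay between the lower quartile and the median and the long circRNA above the median.

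The intron-exon circRNA runs from 1897382 to 1904068, with its start inside an intron, 5898 bases upstream of the start of the major circRNA. Its span is 6686 bases, yet its listed spliced length is 469 bases, the same as that of the major circRNA. The listed length thus counts none of the added 5898 bases, and the true length of this circle is not known from the table. The same was seen elsewhere. Of 129 intron-exon circRNAs, 64 shared a start or end with an exon-exon circRNA of the same host gene. Of these 64, 39 carried the same spliced length as such a partner. The circRNA described here is included in each of these counts.

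**Figure D1:**
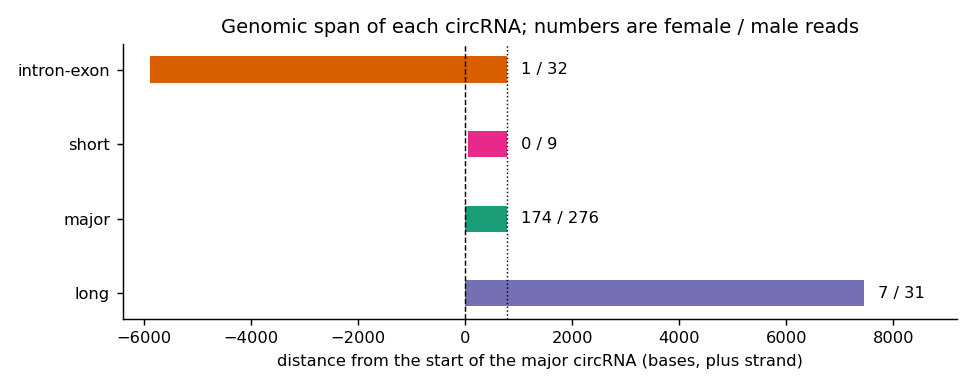
Genomic span of the 4 circRNAs, drawn as bars against the distance in bases from the start of the major circRNA, with female / male junction reads summed over 3 libraries each beside each bar. The dashed line is the start shared by the major and long circRNAs, and the dotted line is the end shared by the intron-exon, short and major circRNAs.

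The 4 circRNAs thus used 2 ends and 3 starts. The end at 1904068 was shared by 3 of them, which held 492 of the gene's 530 reads. In females this end took 96.2%, 93.3% and 100% of the gene's reads in replicates 1, 2 and 3, and in males 82.5%, 87.4% and 98.1%. The start at 1903280 was shared by the major and long circRNAs, which held 488 reads. It took 100%, 100% and 98.2% of the gene's reads in female replicates 1, 2 and 3, and 92.5%, 79.3% and 92.4% in male replicates 1, 2 and 3. For the shared end the sexes overlapped, since male replicate 3 lay above the lower female libraries. For the shared start every female library lay above every male library, but such splits in other host genes were not counted.

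A shared site of this kind was common. Of 214 host genes with 4 circRNAs, this gene included, 53 (24.8%) had 3 or more of them at 1 start or 1 end. Of 310 host genes with 5 or more circRNAs, 178 (57.4%) did. The share of reads at the most shared site, 92.8% over all libraries here, was reached by 35 of the 214 genes, whose median was 67.6%. This site was the one with the most circRNAs, then the most reads, so it need not hold the leading circRNA. Genes without a shared site entered with their leading circRNA alone, so the values are not all of 1 kind.

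The gene was among the richest sources of junction reads. Its 530 reads, 182 from females and 348 from males, ranked 18 of 4166 host genes, and the 450 reads of its major circRNA ranked 17 of 8690 circRNAs. Within single libraries the major circRNA ranked from 17 to 30 in females and from 7 to 33 in males. Library depth differed between the sexes, with 13322 to 17197 junction reads in females and 21624 to 27257 in males. Levels are therefore given as junction reads per 10000 junction reads of the library after TMM scaling, which evens out library totals and composition. Where levels are given as reads per 10000, junction reads are meant throughout.

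Summed over its circRNAs, the gene stood at 32.2, 44.5 and 42.4 reads per 10000 in female replicates 1, 2 and 3, against 38.7, 46.0 and 61.0 in male replicates 1, 2 and 3. The sexes overlapped: male replicates 2 and 3 lay above all female libraries, and male replicate 1 lay within the female range. The means were 39.7 ± 6.59 in females and 48.5 ± 11.4 in males (SD, n = 3 each), and the log2 fold change of female over male was -0.29 (SE 0.22, edgeR quasi-likelihood fit over 870 host genes). The gene was not called in that fit at an adjusted p of 0.05, in which 4.83% of host genes were called. In whole bodies, fewer cells of a type and less RNA per cell cannot be told apart.

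The major circRNA carried most of the reads in every library and had much the same mean in the sexes. It had 50, 70 and 54 reads in female replicates 1, 2 and 3, against 60, 74 and 142 in male replicates 1, 2 and 3. Scaled for depth these are 30.7, 40.8 and 39.6 reads per 10000 in females, and 27.8, 29.8 and 51.5 in males. Males thus lay on either side of the females, with replicate 3 highest of all 6 libraries and replicates 1 and 2 lowest. The means were 37.05 ± 5.53 in females and 36.3 ± 13.2 in males, and the log2 fold change was 0.02 (SE 0.24). Without male replicate 3 it was 0.36, and without male replicate 1 it was -0.14, so the sign rested on single libraries. In the authors' TMM-normalised CPM table the major circRNA stood at 6.05, 8.12 and 7.70 CPM in females and at 5.65, 5.86 and 10.1 CPM in males.

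The intron-exon circRNA was found almost wholly in males. It had 0, 0 and 1 reads in female replicates 1, 2 and 3, against 6, 14 and 12 reads in male replicates 1, 2 and 3. Scaled for depth these are 0, 0 and 0.73 reads per 10000 in females and 2.78, 5.63 and 4.35 in males, and the sexes did not overlap. Of all tested circRNAs, 14.9% had every male library above every female library. Pooled over libraries and scaled for depth, its 32 male reads against 1 female read gave a male over female ratio of 20.3. The exact 95% counting interval of this ratio was 3.40 to 828. It covers counting error of the pooled reads only and leaves out the spread between pools, so it is no test of sex. The fitted log2 fold change of female over male was -3.97 (SE 1.34).

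The long circRNA had 2, 5 and 0 reads in female replicates 1, 2 and 3, against 14, 14 and 3 reads in male replicates 1, 2 and 3. Its levels were 1.23, 2.92 and 0 reads per 10000 in females and 6.48, 5.63 and 1.09 in males. Male replicates 1 and 2 were the highest, while male replicate 3, the deepest library, fell within the female range. The log2 fold change was -1.54 (SE 0.91), and it ran from -2.61 without female replicate 2 to -1.01 without female replicate 3.

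The short circRNA was read in male replicate 2 only, with 9 reads there, 3.62 per 10000, and no reads in the other 5 libraries. Set against a floor of 3 reads for the female libraries together, its pooled male level gave a ratio of 1.91. This ratio leaves out the counting error of the 9 male reads, so it is not a bound. Without male replicate 2 there is no read left to compare. It did not pass the filter on low counts and was not fitted.

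**Figure D2:**
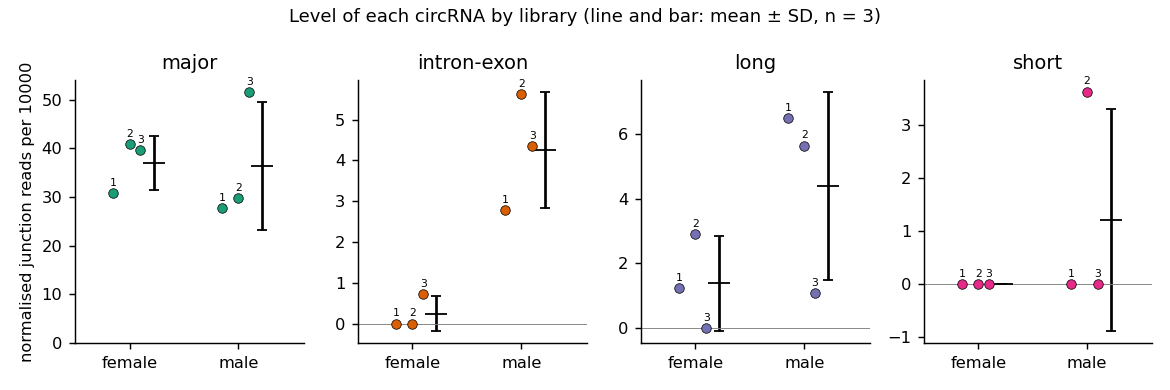
Normalised junction reads per 10000 of each circRNA by sex, with each point a library marked by its replicate number and the line and bar the mean ± SD (n = 3 per sex); each panel has its own vertical scale. The major circRNA lies between 27.8 and 51.5 in all 6 libraries, and the intron-exon circRNA lies at 2.78 or more in males and at 0.73 or less in females.

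In the fit over 738 circRNAs, 0 of the 3 members that passed the filter were called at an adjusted p of 0.05, while 6.64% of all tested circRNAs were called. DESeq2 also called 0 of the 3 after adjustment. Since sex was in view when the gene was chosen, nothing is read from these counts. Over all circRNAs, 28 were called higher in females and 21 lower. Leaving out male replicate 1 made these counts 14 and 8, and leaving out male replicate 2 made them 16 and 9.

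In males less of the gene's reads came from the major circRNA than in females. The major circRNA held 96.2% of the gene's reads in female replicate 1 (50 of 52 reads, exact 95% binomial interval 86.8% to 99.5%), 93.3% in female replicate 2 (70 of 75, 85.1% to 97.8%) and 98.2% in female replicate 3 (54 of 55, 90.3% to 99.95%). In males it held 75% in replicate 1 (60 of 80, 64.1% to 84.0%), 66.7% in replicate 2 (74 of 111, 57.1% to 75.3%) and 90.4% in replicate 3 (142 of 157, 84.7% to 94.6%). All male shares lay below all female shares, and male replicate 3 came within 3 percentage points of female replicate 2, with intervals that overlap. How many other host genes split this way by library was not counted, so nothing is drawn from the split. The mean share was 95.9% ± 2.44 in females and 77.4% ± 12.1 in males (SD, n = 3 each), a female minus male difference of 18.5 percentage points. It was 13.2 points without male replicate 2 and 25.1 points without male replicate 3. The binomial intervals cover counting error within a library only and leave out the spread between pools. Without molecular identifiers the reads cannot be taken as independent molecules, so the intervals may be too narrow.

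The other 3 circRNAs made up the rest. Together they had 2, 5 and 1 reads in female replicates 1, 2 and 3, against 20, 37 and 15 in male replicates 1, 2 and 3. As levels these are 1.23, 2.92 and 0.73 reads per 10000 in females and 9.26, 14.9 and 5.44 in males. The level of the major circRNA was highest in male replicate 3, the male library in which the others were lowest.

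Each of the minor circRNAs had its own spread over the male libraries. The intron-exon circRNA held 7.5%, 12.6% and 7.64% of the gene's reads in male replicates 1, 2 and 3. In female replicates 1 and 2 it had no read, and the exact 95% intervals of the share reach up to 6.85% and 4.80%. In female replicate 3 it held 1.82% (1 of 55 reads, exact 95% interval 0.046% to 9.72%). The long circRNA held 17.5%, 12.6% and 1.91% in male replicates 1, 2 and 3. In female replicates 1, 2 and 3 it held 3.85%, 6.67% and 0%, where the exact interval of the 0 reaches 6.49%. Its male share in replicate 3 lay below the share in female replicates 1 and 2. The short circRNA held 8.11% in male replicate 2. For its 0 reads in male replicates 1 and 3 the exact intervals reach 4.51% and 2.32%.

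**Figure D3:**
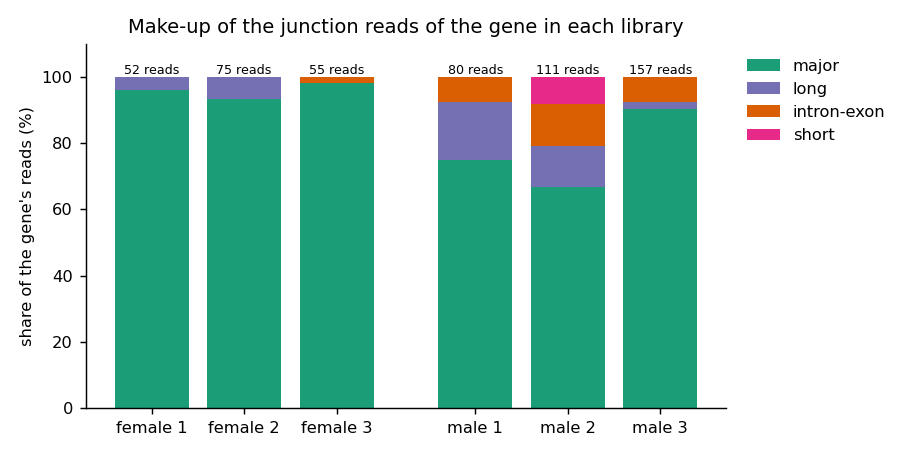
Share of the gene's junction reads held by each circRNA in each library (stacked bars, percent), with the gene's read total above each bar. The major circRNA takes 93.3% to 98.2% in the female libraries and 66.7% to 90.4% in the male libraries.

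Set against other host genes of any read total, the dominance of 1 circRNA was above the middle of the range. Over all libraries the major circRNA held 84.9% of the reads of the gene. Of the 214 host genes with 4 circRNAs, 28 reached such a share for their leading circRNA, and the median was 57.1% (quartiles 41.7% and 71.4%). Of the 310 with 5 or more circRNAs, 14 did. Read totals were not matched in these sets. Among genes of 4 circRNAs, the 3 others nearest in reads had higher lead shares, 94.0%, 98.0% and 96.9%.

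The gap between the sexes can be set beside the same gap in 53 of the 214 genes, those with 30 or more reads in each sex. From pooled reads, the leading circRNA of the folate gene held 95.6% of female reads and 79.3% of male reads, a difference of 16.3 percentage points. The 53 genes, this one among them, had a median difference of -0.28 points (quartiles -7.81 and 4.37). A difference of 16.3 points or more in the same direction was seen in 4 of the 53, and one of that size in either direction in 11. Of 113 host genes with 5 or more circRNAs and 30 or more reads in each sex, 19 had such a difference in the same direction and 37 in either direction, around a median of -0.01 points (quartiles -8.94 and 9.95). Both sets mix read totals, from 30 reads per sex upward, and counting error in a share is wider where reads are few. The 3 other genes of 4 circRNAs with the nearest read totals had smaller gaps. LOC109404443, an uncharacterized gene, had 93.04% in females and 94.3% in males. The mitochondrial carrier Rim2-like (LOC115253702), named after a yeast carrier of pyrimidine nucleotides, had 98.99% and 97.4%. The upstream stimulatory factor gene LOC109414189, which encodes a transcription factor, had 96.5% and 97.3%.

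**Figure D4:**
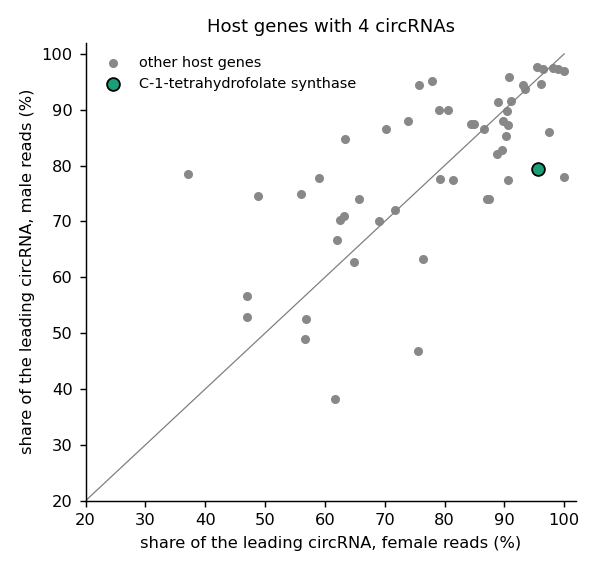
Share of the leading circRNA in the female reads (horizontal axis, percent) and male reads (vertical axis, percent) of 53 host genes with 4 circRNAs and 30 or more reads per sex. The grey line marks equal shares, and the C-1-tetrahydrofolate synthase gene lies below it at 95.6% in females and 79.3% in males.

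The division of reads by sex can also be read for single circRNAs. Female libraries gave 39.1% of all junction reads in the series, 38.7% of those of the major circRNA, 18.4% of those of the long circRNA and 3.03% of those of the intron-exon circRNA. Intron-exon circRNAs as a class had 269 female and 572 male reads, a female share of 32.0%. Apart from the member described here, 4 of that class had 30 or more reads, with female shares from 20.9% to 39.5%. Of 770 circRNAs of any class with 30 or more reads, 4 had a female share as low as that of the intron-exon circRNA or lower, this one included. That cut falls at 1 of 33 reads. A circRNA each of LOC109412654, LOC109410169 and LOC115254371, with 1 female read of 32, lay just above it at 3.125%.

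**Figure D5:**
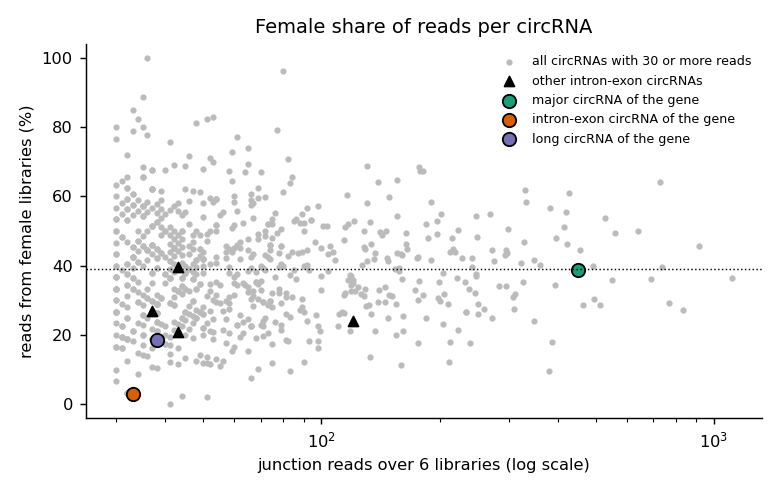
Percent of junction reads from female libraries (vertical axis) against junction reads over 6 libraries (horizontal axis, log scale) for 770 circRNAs with 30 or more reads. The dotted line is the female share of all junction reads, 39.1%; the major circRNA sits on it at 38.7%, and the intron-exon circRNA at 3.03% is below the 4 other intron-exon circRNAs (triangles).

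Copies and overlaps were looked for among the listed circRNAs. None from another host gene had the same span and spliced length as a member, none lay on the opposite strand at the same position, and no circRNA of another gene lay within the span of the gene. No other host gene in the table had this product name. The product name carries the flag of RefSeq for a low-quality protein, a gene model whose sequence needed correction, so exon borders here may be less sure than in other genes.

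Other genes of folate and single-carbon metabolism were looked up by product name. Outside C-1-tetrahydrofolate synthase, 9 host genes matched the list, with 17 circRNAs and 143 reads in all, and no gene had more than 50 reads. Of these, 2 passed the filter on low counts. By edgeR 0 of 2 were called at an adjusted p of 0.05, beside the 4.83% called over all host genes. Adenosylhomocysteinase-like 1 (LOC109424973), related to the enzyme that clears the product of methylation reactions, stood at 7.44, 4.75 and 3.86 reads per 10000 in females and 4.35, 3.32 and 3.11 in males (log2 fold change 0.58, SE 0.67). S-adenosylmethionine synthase-like (LOC109426506), which makes the cell's main methyl donor, stood at 1.86, 1.19 and 3.09 in females and 0, 4.97 and 2.72 in males (log2 fold change -0.37, SE 1.06). The sexes overlapped in both genes.

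The remaining 7 folate genes had too few reads or too uneven ones to be tested. The cyclo-ligase that brings 5-formyltetrahydrofolate back into use (LOC115270355) had 18 reads in females and 18 in males. The folate transporter 1-like gene (LOC115256980) had 0 female and 13 male reads. The other 5, among them a pair of mitochondrial folate carriers (LOC109408531 and LOC109423339) and formyltetrahydrofolate dehydrogenase (LOC109409300), had 2 to 5 reads each. The list of purine and pyrimidine synthesis, a downstream use of folate, matched 8 host genes with 94 reads in all, at most 27 for 1 gene, and none passed the filter. Its name matching also took in nicotinate phosphoribosyltransferase (LOC109407088, 4 reads), an enzyme of NAD synthesis.

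The host genes whose summed levels were most like those of C-1-tetrahydrofolate synthase over the 6 libraries were found by Pearson correlation of log2(CPM + 1), among the host genes tested. These were C2 domain-containing protein 5 (LOC109432808, r = 0.93), the small conductance calcium-activated potassium channel (LOC109405701, r = 0.91), cytohesin-1-like (LOC115259146, r = 0.89), and the uncharacterized genes LOC109411142 (r = 0.88) and LOC109426839 (r = 0.86). The 6 points share library depth and sex. By Spearman correlation 6 host genes reached a rho of 0.94 or more, the value at rank 5, and 3 of these 5 were among them. The values are a description of likeness and no more.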

How the data were processed

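The deposited count table gives raw, whole-number counts of back-splice reads for each circRNA in each library, per the file headers. The submitters' processing notes name Bowtie2 2.1.0; no caller, build or annotation is given in the sources used here. Its 30393 lines were collapsed to 8690 circRNAs. Spliced lengths are the authors' values. For 604 exon-exon circRNAs they match end minus start and for 836 they fall short of it by 1 base, so the counting base of starts (0 or 1) is unsettled. The deposited CPM table, TMM-normalised by the authors as its title says, holds 764 circRNAs, 3 of the 4 described here among them. Scaling each library by a constant turned 100% of its values into the deposited counts (tolerance 0.01 reads), and whole reads were recovered this way; an edgeR test on those reads called 27 circRNAs higher in females and 20 in males.

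Sex and replicate came from the sample titles. Counts per circRNA and summed per host gene were fitted with edgeR 4.0.16 in R 4.3.3 (TMM, filterByExpr with minimum count 5 and minimum total 15, quasi-likelihood F test of sex, Benjamini-Hochberg adjustment). Log2 fold changes have females on top, and their SE was taken as the absolute log2 fold change divided by the root of the F statistic. The fits were tested on simulated data. Alternatives were DESeq2 1.42.0, other scaling, no filter, a replicate block and leaving out each library. Shares have exact Clopper-Pearson intervals (scipy 1.17.1). Figures were drawn with matplotlib 3.10.9 in Python 3.11.15.

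Libraries of the same sex differed beyond sampling noise (chi-square 2.12 to 2.92 per degree of freedom) and were kept as separate replicates. The series design calls them biological replicates. The gene, its circRNAs, the folate and purine lists (matched by words in product names) and the rules for named genes were chosen with earlier results of these data known: circRNAs of 10 or more reads one by one, all tested folate genes, the 5 most alike host genes and the 3 nearest in reads. Host genes with 4 circRNAs, and both uses of the CPM table, were added as comparisons after the data were seen, because the planned comparison took genes with 5 or more.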

Additional observations from a re-analysis of the deposited data

How the results depend on the processing

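The log2 fold changes of the gene total, the intron-exon circRNA and the long circRNA kept their sign under every alternative run. Leaving out 1 library, the gene total ran from -0.43 to -0.09, the intron-exon circRNA from -6.21 to -3.45, the long circRNA from -2.61 to -1.01 and the major circRNA, whose sign was not settled, from -0.14 to 0.36. The -6.21, and a call that came with it, belong to the fit without female replicate 3, where no female read is left, so nothing is drawn from them. Without a filter on low counts the major circRNA was at -0.29, the long circRNA at -1.82 and the intron-exon circRNA at -4.23. The gene total was at -0.48 in that run. Each lay lower than in the main fit, and the cause was not tested. Library totals implied by the CPM table and reads recovered from it, both added after the data were seen, changed no direction and no call of the 3 fitted members. Share differences moved by less than the SD of replicates pooled over the sexes, which the wider male spread dominates. Against the narrower female SD some moved more, in either direction. The major circRNA's difference was 25.1 points without male replicate 3 and 13.2 without male replicate 2. The long circRNA's was -11.6 without male replicate 3 and -3.76 without male replicate 1. The intron-exon circRNA's was -6.97 without male replicate 2. The short circRNA's share rests on male replicate 2 and is 0 without it. Only the major circRNA had reads in all 6 libraries, so shares among circRNAs found in all libraries could not be compared.

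Calls over all features moved more. Those higher in females numbered 3 for circRNAs and 13 for host genes without a filter, and 36 for host genes by DESeq2, against 28 and 22. Leaving out 1 library, circRNA calls ran from 14 to 27 in females and 8 to 30 in males, and host gene calls from 7 to 26 and 5 to 25; the lowest of these counts came without male replicate 1 or 2.

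Female and male libraries of the same replicate number shared little deviation from their sex mean (correlation 0.02, 0.0039 and -0.02 for numbers 1, 2 and 3). With counts this low, that cannot show whether the samples were paired. With the replicate block, 28 and 21 circRNAs and 28 and 24 host genes were called, and the log2 fold changes were -0.28 for the gene total, -3.99 for the intron-exon, 0.07 for the major and -1.77 for the long circRNA, with no call changed among them. Depth limits the minor circRNAs most: none had more than 38 reads.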
